A study of Bos taurus with 46 samples.

Results

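The inflammasome and NOD-like receptor genes of maternal leukocytes were followed through 10 named genes, all 10 of which were found by symbol among the 30675 genes of the NCBI count table (25404 of them with a read). They are the receptor genes *NLRP1*, *NLRP3*, *NLRP12*, *NOD1*, *NOD2* and *NLRX1*, the adaptor gene *PYCARD*, the caspase genes *CASP1* and *CASP4*, and the pore gene *GSDMD*. They were listed by name as genes of the pathway, with earlier results of these data known, and each of them passed the filter on low counts in every comparison.

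Circulating leukocytes were collected from 23 pregnant Angus crossbred heifers, young cows that have not yet calved, at D55 and again at D105 of gestation, which gave 46 libraries. The 8 AI heifers had conceived by artificial insemination and served as controls. The 6 IVP-Normal and 9 IVP-LOS heifers carried embryos produced in vitro with Brahman semen and cultured with serum, and differed in whether a fetus reached the weight set as large offspring syndrome (LOS), a fetal overgrowth condition, from the AI fetuses. In the study's account each AI dam carried a single fetus, while some IVP-Normal and IVP-LOS dams carried twins. Fetus number was not a term in the fits. The comparisons asked whether leukocyte transcripts differ between days and between these pregnancies. The cells were the buffy coat after lysis of red cells, a mixture of white cell types, and in such bulk samples fewer cells of a type and less RNA per cell cannot be told apart.

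NOD-like receptors are cytosolic sensors of microbial fragments and of cell damage. Some of them, such as NLRP3, assemble with the adaptor ASC (encoded by *PYCARD*) and caspase-1 into an inflammasome, which matures interleukin-1β and interleukin-18 and cleaves gasdermin D, the protein that opens pores in the membrane. NOD1 and NOD2 instead recognise peptidoglycan fragments and signal through RIPK2 to NF-κB. In blood, these genes are expressed above all in neutrophils and monocytes, although several of them are transcribed in lymphocytes too.

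Gene totals ran from 18692653 to 24502012 reads (median 22934799.5). The D105 libraries of IVP-LOS heifers 604 and 664, which the study sets apart as the dams of the largest LOS fetuses, had the lowest totals, with 38.6% and 36.7% of reads falling outside genes against 23.6% to 31.1% in the other 44 libraries, as a share of the reads either counted on 1 gene or falling on no gene. On D105 the AI and IVP-LOS libraries carry the set label BACKUP and the remaining libraries the label New, so day and set cannot be told apart in those groups, whereas both days of the IVP-Normal group are in 1 set. The labels give no season of blood collection per library. A supplementary legend of the study places the D55 blood in winter and the D105 blood in summer. Its main text names autumn, spring and summer for the experiment. Where season went with day, they cannot be told apart, and the part of season in the differences between days was not tested. Levels are given as CPM (reads of a gene scaled to a common library total) after TMM scaling over the 46 libraries. These levels carry no correction for transcript length and are compared between samples, not between genes.

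On D105, *NLRP3*, *NLRP12*, *NOD2*, *NLRX1* and *CASP4* were higher than on D55 in AI heifers, and *NLRP3* and *CASP4* were higher in IVP-Normal heifers. In IVP-LOS heifers no member was called. These calls are by edgeR's quasi-likelihood F-test at a Benjamini-Hochberg FDR of at most 0.05 over all genes tested. The same applies to every FDR and call below unless another fit or test is named. This main fit treated the 2 libraries of a heifer as independent, and results with heifer as a block are given as such. In AI heifers, 5 of 10 members were called, all higher, where 9.95% of the 15248 genes tested were called (7.21% higher and 2.73% lower). In IVP-Normal heifers, 2 of 10 were called, both higher, where 2.45% of genes were called (2.27% higher and 0.184% lower). In IVP-LOS heifers 0 of 10 were called and an unadjusted p under 0.05 was found for 0 of 10, where 0.251% of the 15163 genes tested were called (0.198% higher and 0.0528% lower), and edgeR's likelihood ratio test and DESeq2 also called 0 members. The median log2 fold change of the members was 0.51 in AI, 0.56 in IVP-Normal and 0.25 in IVP-LOS heifers, beside medians of -0.02, -0.03 and 0.01 over all genes tested.

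**Figure D1:**
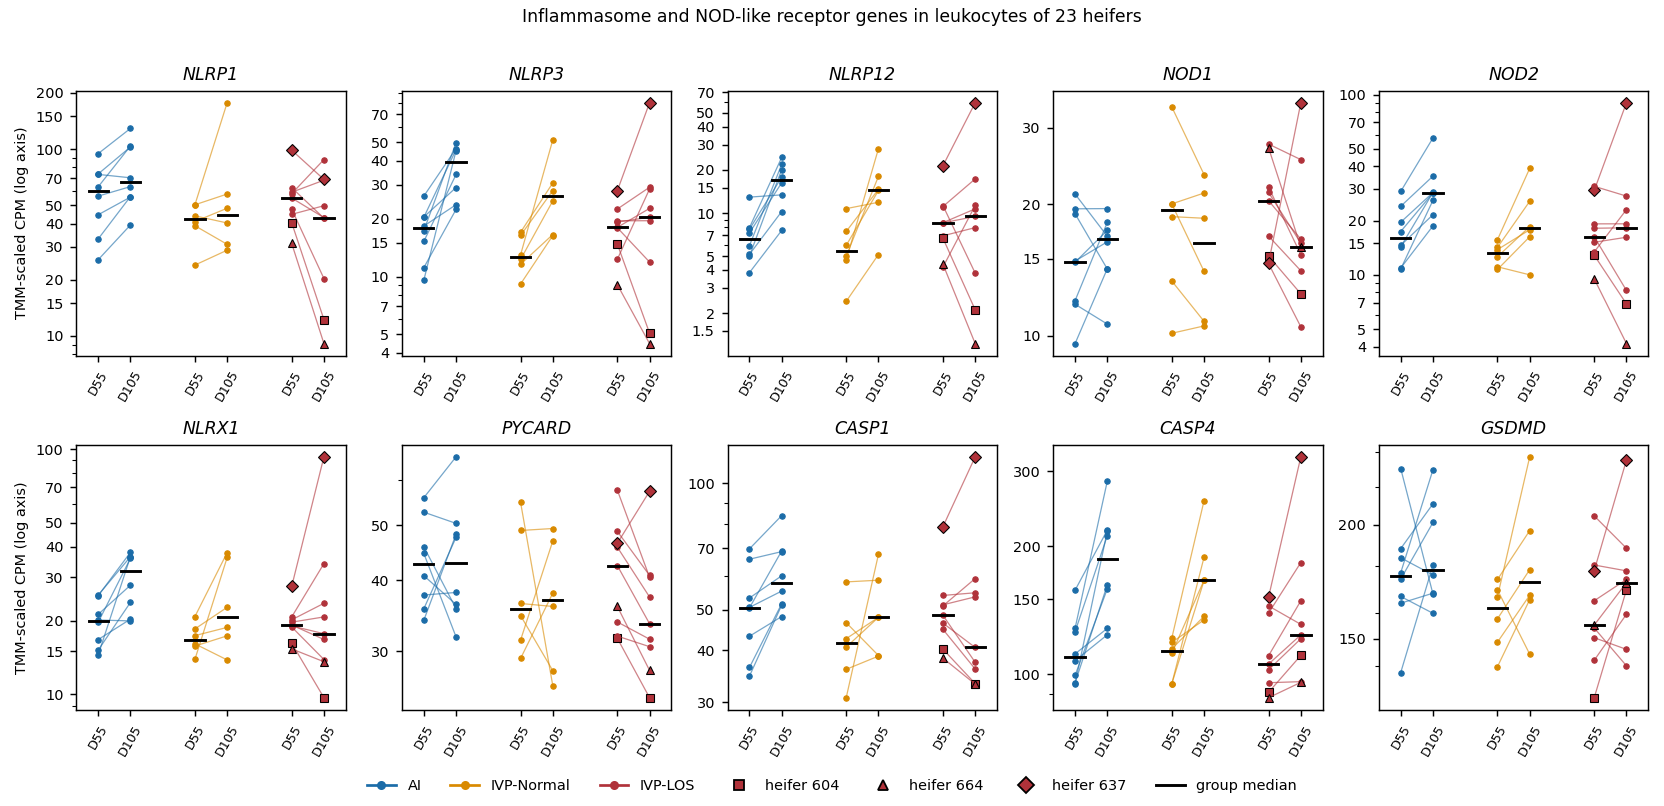
CPM (log axis, with its own range in each panel) of the 10 members in each heifer on D55 and D105, with a line joining the 2 libraries of a heifer, a black bar at the group median and black outlines for heifers 604, 664 and 637. The lines for *NLRP3* and *CASP4* rise in each AI and IVP-Normal heifer, whereas the IVP-LOS lines of *NLRP3* and *NOD2* fan out between heifer 637 at the top and heifers 604 and 664 at the bottom.

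*NLRP3* encodes the best studied inflammasome sensor, which responds to potassium efflux and membrane damage. In AI heifers its level ran from 9.56 to 26.2 CPM on D55 (median 17.8) and from 22.4 to 49.9 CPM on D105 (median 39.7). The level rose in 8 of 8 AI heifers, and 6 of the 8 D105 values exceeded the highest D55 value. The log2 fold change was 1.10 ± 0.22 (SE, n = 8 heifers), with an FDR of 0.00266. In IVP-Normal heifers the level ran from 9.14 to 17.0 CPM on D55 (median 12.6) and from 16.4 to 51.6 CPM on D105 (median 26.4). It rose in 6 of 6 heifers, and only the 2 lowest D105 values lay within the D55 range. A log2 fold change of 1.08 ± 0.26 (SE, n = 6) passed the threshold narrowly, with an FDR of 0.0483. With 1 heifer left out at a time it ran from 0.84 to 1.16, and the call was lost without 560, 628, 633, 669 or 688 (FDR of up to 0.131).

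In IVP-LOS heifers the *NLRP3* level ran from 9.08 to 28.0 CPM on D55 (median 18.0) and from 4.47 to 80.5 CPM on D105 (median 20.4). It was higher on D105 in 6 of 9 heifers and lower in 557, 604 and 664. Heifer 637 held the highest value on both days, at 28.0 and 80.5 CPM. This gave a log2 fold change of 0.48 ± 0.42 (SE, n = 9), with an FDR of 0.702, and it was 0.10 without heifer 637 and 0.28 without 604, 637 and 664. Ordered by group mean, *NLRP3* stood at 37.1 ± 11.1 CPM in AI on D105, 28.0 ± 13.0 in IVP-Normal on D105, 24.7 ± 22.8 in IVP-LOS on D105, 17.9 ± 5.54 in IVP-LOS on D55, 17.3 ± 5.38 in AI on D55 and 13.2 ± 2.99 in IVP-Normal on D55 (SD). Neighbouring means in this order differed by less than the larger of their SDs.

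*NLRP12* encodes a receptor known mainly as a brake on inflammatory signalling in myeloid cells. In AI heifers its level ran from 3.83 to 12.9 CPM on D55 (median 6.59) and from 7.56 to 24.4 CPM on D105 (median 17.0). The level rose in 8 of 8 heifers, with 6 of 8 D105 values above the highest D55 value. The log2 fold change of 1.25 ± 0.26 (SE) was the largest among the members in AI heifers, with an FDR of 0.00394. In IVP-Normal heifers the level was higher on D105 in 6 of 6, with medians of 5.47 and 14.5 CPM. For that group the log2 fold change was 1.34 ± 0.38 (SE), with an FDR of 0.0944 that missed the threshold, while the fit with heifer as a block gave 1.31 ± 0.26 with an FDR of 0.0151. The D105 levels in IVP-LOS heifers ran from 1.22 CPM in 664 to 59.0 CPM in 637, with a median of 9.46 CPM against 8.54 CPM on D55, and the log2 fold change was 0.58 ± 0.56 (SE, FDR of 0.732) in the group as a whole and 0.07 without 637.

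*NLRP1* encodes a sensor that is activated when its own chain is cut or destabilised. Its level was higher on D105 in 7 of 8 AI heifers, with medians of 59.5 CPM on D55 and 66.7 CPM on D105 and ranges of 25.6 to 94.7 and 39.3 to 129.2 CPM. The log2 fold change was 0.42 ± 0.27 (SE), with an FDR of 0.392 that became 0.00736 with heifer as a block (0.43 ± 0.09). In IVP-Normal heifers the log2 fold change was 0.61 ± 0.40 (SE, FDR of 0.552), of which heifer 628 held much, since its level of 177.4 CPM on D105 exceeded that of the 22 other heifers and the value was 0.077 with that heifer left out. In IVP-LOS heifers the level was lower on D105 in 6 of 9, and the group medians were 54.8 and 43.0 CPM. *NLRP1* was the member with the lowest log2 fold change there, at -0.29 ± 0.36 (SE, FDR of 0.791).

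*NOD2* encodes the receptor for muramyl dipeptide, a fragment shared by most bacterial cell walls. In AI heifers its level ran from 10.8 to 29.0 CPM on D55 (median 16.0) and from 18.7 to 57.5 CPM on D105 (median 28.5). It rose in 8 of 8 heifers, although only 2 of the 8 D105 values exceeded the highest D55 value. Its log2 fold change was 0.80 ± 0.24 (SE), with an FDR of 0.0393, and the call was lost without 517, 590, 606, 609, 647 or 648 (0.76 to 0.86 over all 8 omissions, FDR of up to 0.102). In IVP-Normal heifers the level was higher on D105 in 5 of 6, and the log2 fold change of 0.70 ± 0.26 (SE) had an FDR of 0.236. In IVP-LOS heifers it was higher in 5 of 9, and the medians were 16.3 and 18.2 CPM. The value for that group, 0.39 ± 0.45 (SE, FDR of 0.779), turned to -0.12 without heifer 637.

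*NLRX1* encodes a receptor located at mitochondria. Its level rose in 7 of 8 AI heifers, from 14.5 to 25.4 CPM on D55 (median 19.9) to 19.9 to 37.9 CPM on D105 (median 31.9). The log2 fold change was 0.60 ± 0.17 (SE), with an FDR of 0.0275, and the call was lost without 590, 606 or 648 (0.49 to 0.66 over the omissions). In IVP-Normal heifers it was 0.51 ± 0.23 (SE, FDR of 0.356). In IVP-LOS heifers the D105 levels reached 93.1 CPM in 637 but stayed between 9.69 and 34.1 CPM in the other 8, the log2 fold change was 0.48 ± 0.35 (SE, FDR of 0.621), and without 637 it was 0.028.

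*NOD1*, the receptor gene for fragments typical of Gram-negative bacteria, did not pass the test in any group. The medians on D55 and D105 were 14.8 and 16.7 CPM in AI, 19.4 and 16.3 CPM in IVP-Normal and 20.4 and 16.0 CPM in IVP-LOS heifers. The level was lower on D105 in 8 of 9 IVP-LOS heifers and higher in 637 alone, at 14.7 CPM on D55 and 34.2 CPM on D105. The log2 fold changes were 0.06 ± 0.16, -0.23 ± 0.28 and -0.15 ± 0.20 (SE), with FDR values of 0.876, 0.782 and 0.828 in the same order.

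*PYCARD*, the gene of the adaptor ASC that links sensor to caspase, had close medians on the 2 days in AI and IVP-Normal heifers. Its medians on D55 and D105 were 42.7 and 42.8 CPM in AI, 35.5 and 37.0 CPM in IVP-Normal and 42.4 and 33.5 CPM in IVP-LOS heifers. The level was higher on D105 in 4 of 8 AI and 3 of 6 IVP-Normal heifers, while in IVP-LOS heifers the level was lower on D105 in 8 of 9, again with 637 as the exception. The log2 fold changes were 0.03 ± 0.15, -0.08 ± 0.20 and -0.20 ± 0.15 (SE), with FDR values of 0.929, 0.909 and 0.659.

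*CASP4*, which encodes an inflammatory caspase that senses lipopolysaccharide inside the cell, showed the cleanest separation of the days. In IVP-Normal heifers the D55 levels were 114.8, 95.1, 121.8, 112.2, 118.9 and 95.2 CPM in heifers 519, 560, 628, 633, 669 and 688. The D105 levels of the same heifers were 137.0, 166.2, 256.0, 166.5, 134.3 and 188.6 CPM. All 6 D105 values exceeded the highest D55 value. This is a log2 fold change of 0.67 ± 0.14 (SE), with an FDR of 0.0225, and the call was lost without 560, 633 or 688 (0.59 to 0.77 over the 6 omissions, FDR of up to 0.133). In AI heifers the level rose in 8 of 8, from 95.1 to 157.7 CPM (median 109.7) to 123.9 to 284.5 CPM (median 187.1). The change was 0.71 ± 0.16 on the log2 scale (SE), with an FDR of 0.00801. In IVP-LOS heifers it was higher in 8 of 9, all but 663, with medians of 105.8 and 123.9 CPM. The fold change there was 0.39 ± 0.21 (SE) on the log2 scale, which gave the smallest FDR of any member in that group, 0.474, and it was 0.22 ± 0.14 without 637.

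*CASP1*, which encodes the protease that matures interleukin-1β, did not pass the test in any group. Its level was higher on D105 in 8 of 8 AI heifers (medians of 50.5 and 57.8 CPM), but the log2 fold change was 0.28 ± 0.15 (SE) with an FDR of 0.301. With heifer as a block the value was 0.29 ± 0.07 and the FDR 0.0145. The changes in IVP-Normal and IVP-LOS heifers were 0.23 ± 0.17 (FDR of 0.602) and 0.05 ± 0.22 (FDR of 0.963). *GSDMD*, the gene of the pore-forming gasdermin D, varied least between heifers. Its levels lay between 129.4 and 230.3 CPM on D55 and between 140.2 and 237.2 CPM on D105 over the 23 heifers. The coefficient of variation was 13.6% on D55 and 15.0% on D105, against 78.4% for *NLRP12* on D105. The log2 fold changes of *GSDMD* were 0.08 ± 0.09, 0.18 ± 0.11 and 0.11 ± 0.10 (SE) in AI, IVP-Normal and IVP-LOS heifers, with FDR values of 0.692, 0.516 and 0.708.

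**Figure D2:**
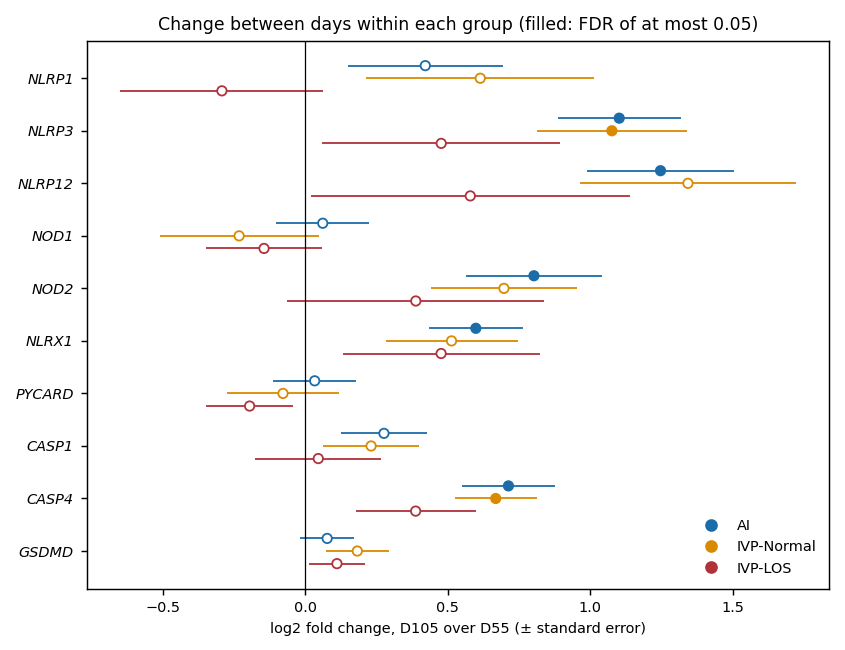
Log2 fold change of D105 over D55 (x axis) for each member (y axis) in the 3 treatment groups, with bars for 1 standard error and filled points for an FDR of at most 0.05. *NLRP3* and *CASP4* are filled in AI and IVP-Normal heifers, no IVP-LOS point is filled, and the points of *NOD1*, *PYCARD* and *GSDMD* lie between -0.23 and 0.18.

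With heifer as a block, which uses that the 2 libraries of a heifer come from the same animal, 7 of 10 members were called in AI heifers (17.1% of genes), 3 of 10 in IVP-Normal heifers (5.50% of genes) and 0 of 10 in IVP-LOS heifers (1.07% of genes). *NLRP1* and *CASP1* were added in AI and *NLRP12* in IVP-Normal heifers. In a single fit of all 46 libraries, which share 1 estimate of the spread, 2 members remained called in AI (*NLRP3* and *CASP4*, with 7.24% of genes) and 0 in IVP-Normal heifers (3.98% of genes). The calls in AI heifers coincide with the change of library set. For the IVP-Normal group, where the set did not change, the log2 fold changes of the members called in AI were 1.08, 1.34, 0.70, 0.51 and 0.67 for *NLRP3*, *NLRP12*, *NOD2*, *NLRX1* and *CASP4*. Of these, *NLRP3* and *CASP4* were called there by the main test. The part of the library set in the changes of AI heifers was not tested.

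Other genes of the pathway were read from 4 lists, whose counts stand beside 7.21% of all genes called higher and 2.73% lower in AI heifers and 2.27% higher in IVP-Normal heifers. Of the further sensors and their partners, 2 of 9 tested were called higher in AI heifers, namely *MEFV*, which encodes the sensor pyrin (log2 fold change 2.10 ± 0.34, SE), and *NAIP*, which encodes a sensor of flagellin and secretion needles (1.21 ± 0.28). In IVP-Normal heifers *MEFV* alone was called (1.99 ± 0.45). Of the genes of NOD1 and NOD2 signalling, 2 of 23 were called higher in AI heifers, *TAB2* (0.39 ± 0.10) and *TRAF6* (0.24 ± 0.07), which act downstream of the receptors toward NF-κB. In IVP-Normal heifers 0 of 23 were called, with 2 at an unadjusted p under 0.05. Of the inflammasome regulators, *NEK7*, the gene of a kinase that binds NLRP3, was called higher (0.23 ± 0.06) and *KCNK6*, a potassium channel gene, lower (-0.42 ± 0.13) among 19 tested in AI heifers, and 0 of 19 were called in IVP-Normal heifers, with 2 at an unadjusted p under 0.05. In AI heifers the counts of signalling genes and of regulators called lay near the shares over all genes.

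The changes among effectors and substrates were larger. *IL1B*, the gene of the cytokine that caspase-1 matures, was higher on D105 by a log2 fold change of 3.64 ± 0.57 (SE) in AI heifers, with an FDR of 0.000472, and by 3.41 ± 0.55 in IVP-Normal heifers, with an FDR of 0.00647. *IL1RN*, which encodes the interleukin-1 receptor antagonist, was higher by 1.55 ± 0.29 and 1.63 ± 0.32 in the same groups. *IL18* was called in AI heifers (1.35 ± 0.29). In all, 3 of 10 genes of that list were called in AI and 2 of 10 in IVP-Normal heifers. In IVP-LOS heifers 0 genes of the 4 lists were called, with 8 of 61 at an unadjusted p under 0.05 beside 12.6% of all genes, and *IL1B* there had a log2 fold change of 2.06 ± 0.69 (FDR of 0.200). The median log2 fold changes of the 4 lists in AI heifers were 0.18, 0.02, -0.03 and 0.29 in the order above, beside -0.02 over all genes tested.

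Markers of white cell types moved with the day as well. Of 14 neutrophil markers 13 were in the table, *CSF3R* being the one not used here, and 12 of 13 were called higher on D105 in AI heifers, 9 of 13 in IVP-Normal heifers and 0 of 12 in IVP-LOS heifers, where 8 had an unadjusted p under 0.05. Their median log2 fold changes were 1.57, 1.46 and 1.43. The summed neutrophil marker CPM ran from 1081 to 2227 on D55 and from 2792 to 6490 on D105 in AI heifers, without overlap. In IVP-Normal heifers the ranges were 713.1 to 1646 and 1617 to 6863, and in IVP-LOS heifers 826.0 to 2438 and 668.1 to 16292. Of 9 monocyte markers tested, 2 were called higher in AI (*CD68* and *CD14*) and 0 in IVP-Normal and IVP-LOS heifers, and the summed monocyte markers had medians of 1478 CPM on both days in AI heifers. The basophil markers *GATA2* and *MS4A2* were also called higher in AI heifers, at sums for the list of at most 136.1 CPM in any library. *LEF1* was called higher among 10 T cell markers in AI and *GZMB* among 7 NK cell markers in IVP-Normal heifers, and 0 B cell, platelet or red cell markers were called in AI or IVP-Normal heifers. In IVP-LOS heifers 0 markers of any list were called. The part of these cell types in the members' change was not tested.

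The members followed the neutrophil markers across libraries to unequal degrees. After subtraction of each group-and-day mean, the correlation of log2 levels with the summed neutrophil markers over the 46 libraries was 0.91 for *NLRP12* and *NLRP3*, 0.90 for *NOD2*, 0.89 for *NLRX1*, 0.77 for *CASP4*, 0.74 for *NLRP1*, 0.68 for *CASP1*, 0.60 for *PYCARD*, 0.50 for *GSDMD* and 0.18 for *NOD1*. The libraries share heifers in pairs, so these values describe the data and were not tested. With the summed monocyte markers, *NOD2* had the highest value, 0.86, and *NOD1* the lowest, 0.29. Against the summed B cell markers the values of *NOD2*, *NLRP3* and *NLRP12* were -0.78, -0.74 and -0.73. *NOD1* differed in sign there, at 0.16, and had the most negative value against T cell markers, -0.55.

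**Figure D3:**
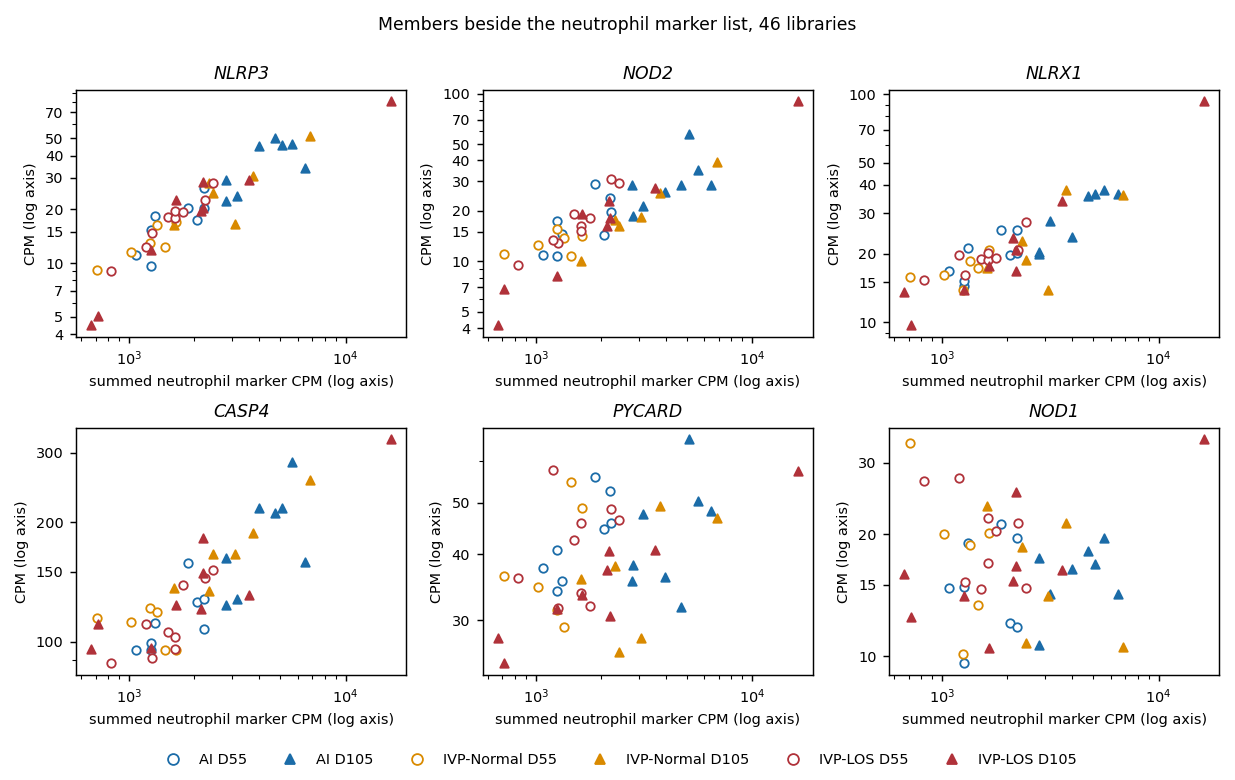
CPM of 6 members (y axis, log) beside the summed CPM of the neutrophil markers (x axis, log) in each of the 46 libraries, with open circles for D55, triangles for D105 and colours for the groups. *NLRP3*, *NOD2* and *NLRX1* rise along the x axis from heifers 604 and 664 to heifer 637, whereas *NOD1* shows no slope apart from heifer 637 on D105.

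Among themselves the members varied together, *NOD1* least so. Over the 36 pairs of members without *NOD1*, the correlation of the same centred levels ran from 0.31 to 0.92 (median 0.69), and over the 9 pairs with *NOD1* from 0.03 to 0.53 (median 0.20). Without 604 and 664 the median over all 45 pairs was 0.56 against 0.60 with them. The 2 genes most alike to each member were taken by the same measure from the 13858 other genes with a mean of at least 1 CPM. For *NLRP3* they were *SLC2A9* (r = 0.94) and *IL1R1* (0.93), for *NLRP12* *DAGLB* (0.94) and *MKNK1* (0.92), for *NOD2* *SKAP2* (0.96) and *ANXA1* (0.95), and for *NLRX1* *VSIR* (0.93) and *FGR* (0.92). For *NOD1* they were *CYBB* (0.83) and *RNF216* (0.77), and for *NLRP1* *LOC508666* and *KCNK17* (both 0.89). For *PYCARD* they were *CNDP2* (0.86) and *C13H20orf27* (0.85), and for *CASP1* *GPHN* (0.88) and *TLR2* (0.86). For *CASP4* they were *TARS* and *TANK* (both 0.91), and for *GSDMD* *TMEM219* (0.83) and *BRI3* (0.81).

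Heifers 604 and 664 had low levels of most members on D105. Both lay below all 21 other heifers for *NLRP1*, *NLRP3*, *NLRP12*, *NOD2*, *NLRX1* and *CASP1*, 604 alone for *PYCARD* and 664 alone for *CASP4*. The *NLRP12* level was 2.11 CPM (37 reads) in 604 and 1.22 CPM (23 reads) in 664, while the others ran from 3.80 to 59.0 CPM with a median of 14.4. *NLRP3* was at 5.07 and 4.47 CPM against 11.9 to 80.5 CPM (median 28.6). *NOD1* and *GSDMD* stayed inside the range of the others in both, with *GSDMD* at 169.7 and 172.8 CPM beside a median of 176.2.

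On D55 heifer 604 lay below all 21 others for 2 members and 664 for 3, against 7 each on D105. The share of all genes that lay below the others in these libraries was not counted. The *NLRP3* level was 14.8 CPM in 604 and 9.08 CPM in 664, beside others that ran from 9.14 to 28.0 CPM, and *NLRP12* was inside the range of the others in both. *CASP4* was below the others in both on that day, at 90.8 and 88.2 CPM against a minimum of 95.1, as were *GSDMD* in 604 (129.4 against 137.9 CPM) and *NOD2* in 664 (0.627 times the median of the others). The summed neutrophil markers of 604 and 664 on D105 were 718.0 and 668.1 CPM against 1262 to 16292 CPM (median 3080) in the others, and the monocyte markers 678.4 and 610.4 against 716.3 to 3245. In 604 the platelet markers summed to 3361 CPM, against at most 976.3 in the others. The part of these markers and of the read share outside genes in the low levels was not tested.

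Heifer 637, also of the IVP-LOS group, stood at the other end. On D105 its levels exceeded those of the 20 heifers other than 604 and 664 for 7 of 10 members. *NLRP12* was 4.25 times, *NOD2* 4.04 times and *NLRX1* 4.03 times the median of those 20 heifers, while *NLRP1*, at 68.9 CPM, was 1.24 times the median. The neutrophil markers summed to 16292 CPM in that library, the highest of the 46. On D55 heifer 637 exceeded the other 20 for 5 of 10 members, with ratios of 0.78 to 3.01. The share of all genes above the others in its libraries was not counted.

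**Figure D4:**
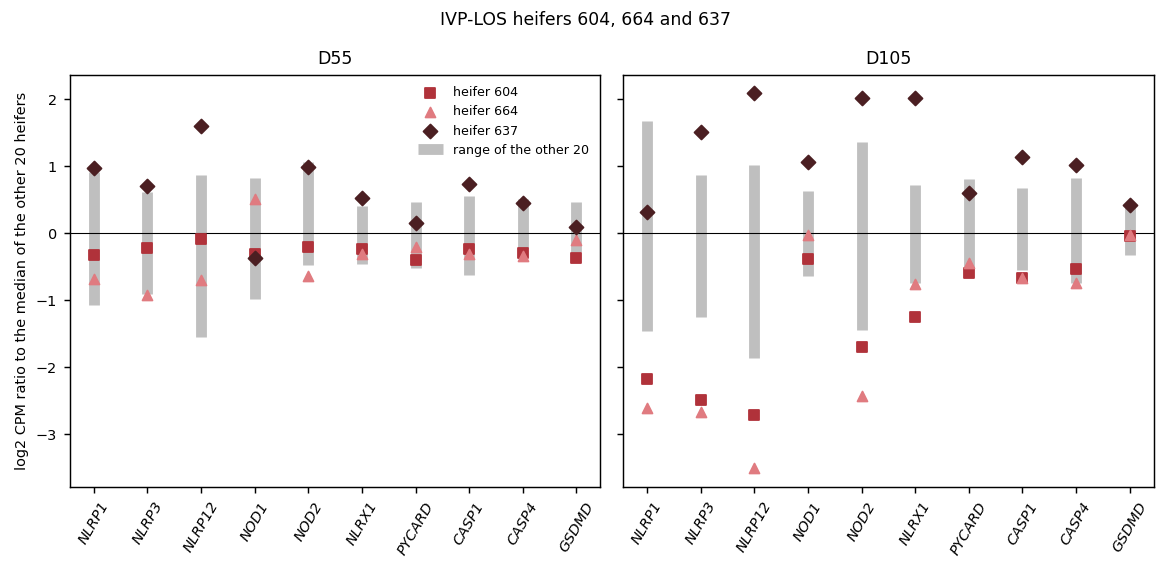
Log2 ratio of the CPM in heifers 604, 664 and 637 to the median of the other 20 heifers (y axis) for each member (x axis) on D55 (left) and D105 (right), with the range of those 20 as grey bars. On D105 the 604 and 664 points drop below the bars for *NLRP1*, *NLRP3*, *NLRP12* and *NOD2*, while 637 lies above them for 7 of 10 members.

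Between treatment groups no member was called on either day. In each of the 6 comparisons edgeR's quasi-likelihood test called 0 of 10 members and 0 genes in all (0% of 15236 to 15484 genes tested), and edgeR's likelihood ratio test and DESeq2 also called 0 members. At an unadjusted p under 0.05 there were 1 of 10 members in IVP-LOS against AI on D55 (7.74% of all genes) and 2 of 10 in IVP-LOS against IVP-Normal on D55 (5.19% of all genes), and 0 in the other 4 comparisons. The 1 member was *NOD1*, with 20.0 ± 5.0 CPM in IVP-LOS and 15.3 ± 4.17 CPM in AI (SD), a log2 fold change of 0.38 ± 0.17 (SE, FDR of 0.639). The 2 were *NLRP3* and *NOD2*, and *NOD2* had 18.3 ± 7.33 CPM in IVP-LOS and 13.0 ± 1.91 CPM in IVP-Normal heifers (0.51 ± 0.23, FDR of 0.839). The ranges of *NOD1* and of *NOD2* overlapped between the groups.

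On D105, the member with the smallest unadjusted p in IVP-LOS against AI, both in the set BACKUP, was *NLRP1*. Its levels were 44.7 ± 27.3 CPM in IVP-LOS and 77.5 ± 30.9 CPM in AI (SD), with a log2 fold change of -0.79 ± 0.38 (SE) and an FDR of 0.754. Without 604 and 664 the value was -0.50 ± 0.29. In IVP-Normal against AI, where the sets differ on D105, *CASP1* had the smallest unadjusted p (-0.28 ± 0.15, FDR of 0.519), and on D55 *NOD2* (-0.44 ± 0.21, FDR of 0.504). In IVP-LOS against IVP-Normal on D105, where the sets differ too, it was *NLRP1* (-0.50 ± 0.49, FDR of 0.999, and -0.21 ± 0.42 without 604 and 664). The median log2 fold changes of the members were -0.22, -0.0045 and 0.24 on D55 for IVP-Normal against AI, IVP-LOS against AI and IVP-LOS against IVP-Normal, and -0.26, -0.28 and -0.04 on D105. Over all genes tested the medians lay between -0.0012 and 0.034. By group mean, AI on D105 was highest of the 6 groups for 9 of 10 members and IVP-Normal on D55 lowest for 8 of 10. *NOD1* was the exception at the top, with its highest mean in IVP-LOS heifers on D55.

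The change between days was then compared between groups with an interaction term, since a call in AI and none in IVP-LOS heifers does not show that the groups differ. By edgeR's quasi-likelihood test 0 of 10 members were called in each of the 3 tests (0% of 16018 to 16181 genes tested), 0 members had an unadjusted p under 0.05, and edgeR's likelihood ratio test and DESeq2 called 0 members. *NLRP1* had the smallest unadjusted p in both tests with IVP-LOS heifers, with a day change lower by -0.91 ± 0.57 on the log2 scale in IVP-LOS than in IVP-Normal heifers (SE, FDR of 0.99997) and by -0.71 ± 0.47 than in AI heifers (FDR of 0.913). Without 604 and 664 these values were -0.77 ± 0.49 and -0.58 ± 0.40. In IVP-Normal against AI, *NOD1* had the smallest unadjusted p (-0.29 ± 0.32, FDR of 0.99994). In the tests with IVP-Normal heifers, the library set changed between days in the other group only. Group and change of set therefore cannot be told apart there, whereas in IVP-LOS against AI the set changed in both groups.

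Heifers tended to keep their place among their group between days for most members. The level on D55 was correlated with that on D105 over the 23 heifers, on log2(CPM + 1) centred by group and day, with 100000 permutations within groups and Benjamini-Hochberg adjustment over 13859 genes. By this permutation test 7 of 10 members were called, where 34.9% of genes were called, and the median r was 0.58 for the members and 0.39 for all genes. *NOD2* had the strongest relation, with r = 0.78 (two-sided permutation p = 3e-05, adjusted 0.000499) and Spearman's rho = 0.76 (p = 0.00011, adjusted 0.00162). It stayed at r = 0.77 without the 2 heifers farthest from the median on D55, and it was 0.87, 0.86 and 0.82 within AI, IVP-Normal and IVP-LOS heifers. *NLRP1* had r = 0.71 (permutation p = 6e-05, adjusted 0.000798) and rho = 0.80 (p = 1e-05, the smallest that these permutations can give, adjusted 0.000336), with r = 0.69 without the 2 farthest heifers.

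The relations of the other members were weaker. *CASP1* had r = 0.67 (permutation p = 0.00083, adjusted 0.00526) and rho = 0.61 (p = 0.00205, adjusted 0.0125), with r = 0.53 without the 2 farthest heifers, and r of 0.86, -0.11 and 0.96 within AI, IVP-Normal and IVP-LOS heifers. *CASP4*, *NLRX1* and *NLRP3* had r of 0.61, 0.59 and 0.57 (permutation, adjusted 0.0177, 0.0152 and 0.0278) and rho of 0.55, 0.54 and 0.51 (adjusted 0.0425, 0.0335 and 0.0577), with r of 0.47, 0.55 and 0.55 without the 2 farthest heifers. These relations were strongest in IVP-LOS heifers. Within AI, IVP-Normal and IVP-LOS heifers, r was 0.46, 0.02 and 0.82 for *CASP4* and 0.38, 0.19 and 0.94 for *NLRX1*. For *NLRP3* it was 0.22, 0.56 and 0.75. *NLRP12* had r = 0.56 (permutation p = 0.0137, adjusted 0.0416) and rho = 0.32 (p = 0.168, adjusted 0.289), and its r of 0.28 without 637 and 519 means that the relation rested on those heifers. *NOD1*, *PYCARD* and *GSDMD* were not called, at r of 0.49, 0.32 and 0.30 (permutation, adjusted 0.0659, 0.270 and 0.288). Their rho was 0.54, 0.31 and 0.44 (permutation, adjusted 0.0486, 0.306 and 0.112). Calls rest on r. By rho *NOD1* lay just under 0.05, whereas *NLRP3* and *NLRP12* lay above it. Without 604 and 664 the call was lost for *NLRP3*, *NLRP12* and *CASP4*, so that 4 members remained called. Without 604, 637 and 664, a choice made after seeing the data, *NLRP1*, *NOD1* and *NOD2* were called, and *NOD1* reached r = 0.76 (adjusted permutation p of 0.00330). The share of all genes called was not counted in either of these runs.

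**Figure D5:**
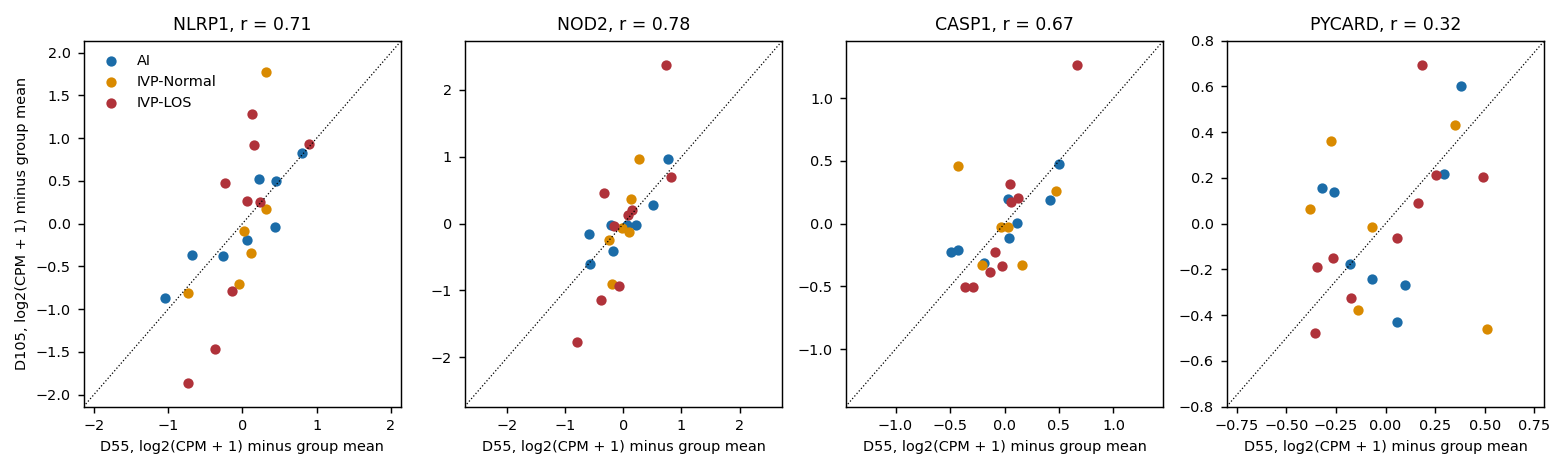
Level of 4 members on D105 (y axis) against D55 (x axis) in each of the 23 heifers, as log2(CPM + 1) minus the mean of the group on that day, coloured by group, with a dotted line of equal deviation. The points of *NOD2* and *NLRP1* follow the line (r of 0.78 and 0.71), whereas those of *PYCARD* are scattered (r of 0.32).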

How the data were processed

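The authors deposited unnormalized counts of reads for each gene, made with HTSeq-count in union mode, after quality trimming and alignment with HISAT2 2.1.0 to ARS-UCD1.2 (named in the submitters' processing notes). The NCBI RefSeq table was used, and its lines for reads outside genes stayed out of totals and tests. The strand setting of the counting is not given in the sources used here. In the RefSeq gene table of ARS-UCD2.0, an assembly other than that used for counting, *NLRP1* overlaps *LOC132343037* and *NLRP12* overlaps *MIR371*, and union mode sets aside reads that fall in both genes of such a pair. The Ensembl table of the authors was not used, because its identifiers could not be paired with the members' symbols.

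Groups, days and heifers were taken from the labels, and nothing said that libraries were replicated beyond 1 per heifer and day. Tests used R 4.3.3 and edgeR 4.0.16 (TMM, filterByExpr with a minimum count of 10, quasi-likelihood F-test, only the compared groups in a fit), with an SE of the log2 fold change divided by the square root of F. The fits were tried on simulated counts drawn independently for each library at a fixed dispersion. The pairing of libraries by heifer was not part of that trial. The members, the pathway lists and the marker lists were chosen with earlier results of these data known. From each pathway list, up to 3 called genes in each direction are named per day comparison, by FDR. Alternatives changed the test (DESeq2 1.42.0 or edgeR's likelihood ratio test) or used upper-quartile normalization, no filter, all 46 libraries in 1 fit, heifer as a block, and omission of heifers.

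The 2 libraries of a heifer come from the same animal. Their deviations from the group-and-day means correlated with a mean r of 0.54 over the 23 heifers (0.29 to 0.84), against -0.02 for libraries of different heifers. The main fits between days had no term for heifer and so did not use this pairing.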

Additional observations from a re-analysis of the deposited data

Results flagged for a closer look

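Dixon's criterion was applied to the CPM of 60 sets of values (10 members in 6 groups), at the lowest and the highest heifer. In 14 of them a heifer stood far from the next, in each case the highest. The criterion is set to flag about 1 of 20 sets of normally distributed values. Whether the CPM have that shape was not checked, so the count of 14 was not tested against chance. Heifer 637 accounted for 11 of the 14. On D105 it held 80.5 CPM of *NLRP3*, 59.0 of *NLRP12*, 90.1 of *NOD2*, 93.1 of *NLRX1*, 57.3 of *PYCARD*, 115.8 of *CASP1* and 324.3 of *CASP4*. On D55 it held 98.8 CPM of *NLRP1*, 21.4 of *NLRP12*, 27.5 of *NLRX1* and 78.9 of *CASP1*. These values share 2 libraries and are not independent of each other. The other 3 were *NLRP1* at 177.4 CPM in IVP-Normal heifer 628 on D105, *NLRP12* at 12.9 CPM in AI heifer 647 on D55 and *NOD2* at 57.5 CPM in AI heifer 546 on D105.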

How the results depend on the processing

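The number of members called was 3 to 5 in AI, 0 to 3 in IVP-Normal and 0 in IVP-LOS heifers with 1 heifer left out at a time. With no heifer left out, 9.95%, 2.45% and 0.251% of all genes tested were called in these groups. The shares with a heifer left out are not given here, so a loss of calls is not set against that over all genes. The number of members called was 0 in IVP-Normal heifers without 560, 633 or 688. With all 46 libraries in 1 fit it was 2 in AI and 0 in IVP-Normal heifers, and the cause was not tested. The relation between days was called for 4 members without 604 and 664 and for 3 without 604, 637 and 664, with the share of all genes not counted. The heifer block added *NLRP1*, *CASP1* and *NLRP12* as given above and changed no other call of a member. In the comparisons of groups and the tests of the difference between day changes, 0 members were called under each alternative run.

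The values that changed sign were those of members that were not called. In AI heifers *PYCARD* was -0.0087 with upper-quartile normalization. In IVP-LOS heifers *CASP1* was -0.0065 with upper-quartile normalization, -0.045 with the block, -0.087 without 637, -0.067 without 604, 637 and 664 and -0.091 with both changes. *NOD2* was -0.053 with the block, -0.12 without 637, -0.0086 without 604, 637 and 664 and -0.036 with both, and *GSDMD* -0.011 and -0.0084 in the last pair. With 1 heifer left out, *NOD1* and *PYCARD* in AI heifers ran from -0.0083 to 0.14 and from -0.034 to 0.098, *PYCARD* in IVP-Normal heifers from -0.18 to 0.13, and *NOD2* and *CASP1* in IVP-LOS heifers from -0.12 to 0.49 and from -0.087 to 0.091.

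The count of all genes called moved with the processing too. It was 1517 in AI heifers and 2603 with the block. It was 374 in IVP-Normal heifers, 613 by edgeR's likelihood ratio test, 748 by DESeq2, 657 with all libraries and 838 with the block. It was 38 in IVP-LOS heifers, 227 by the likelihood ratio test, 336 by DESeq2, 558 with all libraries, 162 with the block, 12 without 604 and 664, 24 without 637, and 1 without all of these (150 with the block). In IVP-LOS against AI on D105 it was 0, 11 by the likelihood ratio test, 43 by DESeq2 and 10 without 637.

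Low reads limited *NLRP12* most, with 23 reads in heifer 664 on D105. With 9 heifers in the IVP-LOS group, the day changes of the members there had standard errors of 0.10 to 0.56 on the log2 scale.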
